A study of Mus musculus with 4 samples.

Results

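The oxygen- and iron-sensing machinery that acts on the hypoxia-inducible factor HIF was read in murine 4T1 cells as 10 genes chosen by name. They are the prolyl hydroxylases Egln1, Egln2 and Egln3, the asparaginyl hydroxylase Hif1an, the HIF alpha subunits Hif1a, Epas1 and Hif3a, the beta subunit Arnt, the ubiquitin ligase subunit Vhl and the HIF inhibitor Cited2. All 10 were found by symbol among the 49585 genes of the expression table, and 8 of them were expressed. 4T1 is a mouse mammary carcinoma line used as a model of triple-negative breast cancer (TNBC). The cells were 4T1-HM and 4T1-LM, each grown from a single 4T1 cell and chosen for high or low metastatic capacity, so each stands for 1 clone. HM_DFX and LM_DFX are the clones after 48 h in 50 μmol/L deferasirox (DFX), an iron chelator dissolved in DMSO. HM_Ctrl and LM_Ctrl are the clones in DMSO alone, called untreated below. Every condition has 1 library, so differences between libraries have no check by replicates and carry no p-value.

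The EGLN enzymes are dioxygenases that need oxygen, iron and 2-oxoglutarate. They hydroxylate prolines in HIF alpha, and the hydroxylated subunit is bound by VHL and degraded. When oxygen or iron is short, the alpha subunit escapes, pairs with ARNT and switches on genes of glycolysis, vessel growth and iron handling, among them Egln1 and Egln3 themselves. Most of this control acts on protein and enzyme activity, which RNA levels do not measure.

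RNA level is given as FPKM, fragments (read pairs) scaled to the length of the gene and to the fragments counted in the library, so genes can be compared per length. The libraries held between 14363066 and 21883855 fragments, recovered from whole steps in the FPKM. Intervals on fragment numbers are exact at 95% and cover counting error only, not the spread between cultures. Genes that reached an FPKM of 1 in any library were called expressed, which kept 12669. A change is the log2 ratio of FPKM + 1, and a gene is called higher or lower, or said to rise or fall, at a change of at least 2-fold. Of 8 epithelial markers fixed for the cell type, 7 were expressed, with summed FPKM between 565 and 2298 and Krt5 at 0. These sums were lower under DFX, at 1767 in HM_Ctrl against 565 in HM_DFX and 2298 in LM_Ctrl against 1072 in LM_DFX. Of the expressed epithelial markers only Krt19 was higher under DFX in a clone, at 46.4 in LM_Ctrl and 103 in LM_DFX. The part of these markers in the results below was not tested. Fewer cells of a type and less RNA per cell cannot be told apart in bulk RNA. Of 5 leukocyte markers 1 was expressed, the lysosomal protein gene Cd68, at 12.9 and 37.4 without and with DFX in HM and 12.3 and 83.1 in LM, while Ptprc, which all leukocytes carry, was at 0.0139 at most and Cd3e at 0. None of 4 endothelial markers was expressed, with sums of at most 0.203. Of 5 fibroblast markers 1 was expressed, Pdgfra, at 2.77 to 5.50. Of the receptors that define TNBC by their absence, Pgr was at 0, Esr1 reached 0.529 at most and Erbb2 lay between 3.80 and 12.5.

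Of the prolyl hydroxylases, Egln1 and Egln3 were the abundant ones in all 4 libraries and Egln2 the scarce one. Egln1 (ENSMUSG00000031987, mm10 chromosome 8 from 124908587 to 124949324, minus strand, 5 exons) encodes the enzyme regarded as the main oxygen sensor in normal oxygen. In 4T1-HM its FPKM was 54.2 without and 53.9 with DFX, and in 4T1-LM 37.3 without and 77.1 with DFX, so the lowest and the highest library both came from 4T1-LM. Egln3 (ENSMUSG00000035105, chromosome 12 from 54178981 to 54203860, minus strand, 5 exons) encodes a family member that is strongly inducible by hypoxia in many cell types. The FPKM of Egln3 was 85.9 without and 32.8 with DFX in 4T1-HM, and 29.8 without and 71.7 with DFX in 4T1-LM. For Egln3 the untreated library was the higher of the HM pair and the lower of the LM pair. Egln2 (ENSMUSG00000058709, chromosome 7 from 27158658 to 27166802, minus strand, 9 exons) encodes an enzyme that hypoxia does not generally induce, and its FPKM was 13.7 untreated and 8.40 treated in HM, and 11.2 untreated and 6.40 treated in LM. The DFX library was the lower one for Egln2 in both clones.

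Hif1an (ENSMUSG00000036450, chromosome 19 from 44562850 to 44576274, plus strand, 8 exons), whose enzyme hydroxylates an asparagine of HIF alpha and so blocks binding of coactivators, was the most even member. It lay at 8.62 untreated and 9.61 treated in HM, and at 8.03 untreated and 7.93 treated in LM.

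Hif1a was the alpha subunit gene with RNA at an appreciable level, and both DFX libraries lay below both untreated ones. Hif1a (ENSMUSG00000021109, chromosome 12 from 73901375 to 73947530, plus strand, 15 exons) had an FPKM of 69.1 without and 30.6 with DFX in HM, and of 51.9 without and 29.1 with DFX in LM. Epas1 (ENSMUSG00000024140, chromosome 17 from 86753907 to 86833410, plus strand), which encodes HIF-2 alpha, was at 0.0479 in LM_Ctrl and listed at 0 in the other 3 libraries. Hif3a (ENSMUSG00000004328, chromosome 7 from 17031507 to 17062427, minus strand) had 0 fragments in every library, which allows up to 3 fragments, or an FPKM of 0.0204 to 0.0311 depending on the library. Neither gene passed the filter, and no change is given for them.

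Arnt (ENSMUSG00000015522, chromosome 3 from 95434388 to 95497240, plus strand) encodes the partner that HIF alpha needs to bind DNA and that it shares with the aryl hydrocarbon receptor. Its FPKM was 9.79 in HM and 9.06 in LM untreated, and 14.3 in HM and 18.7 in LM under DFX, higher in both DFX libraries than in both untreated ones. Vhl (ENSMUSG00000033933, chromosome 6 from 113623959 to 113631633, plus strand, 5 exons), the substrate receptor of the ligase that marks hydroxylated HIF alpha, was at 6.32 in HM and 5.32 in LM untreated, and at 8.50 in HM and 13.7 in LM under DFX. The LM_DFX library stood above the other 3 for both genes. Cited2 (ENSMUSG00000039910, chromosome 10 from 17723228 to 17725673, plus strand, 1 exon), which competes with HIF alpha for the coactivators Ep300 and Crebbp, was at 91.0 in HM and 82.9 in LM untreated, and at 51.4 in HM and 55.8 in LM under DFX. Both DFX libraries thus lay below both untreated ones for Cited2.

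**Figure D1:**
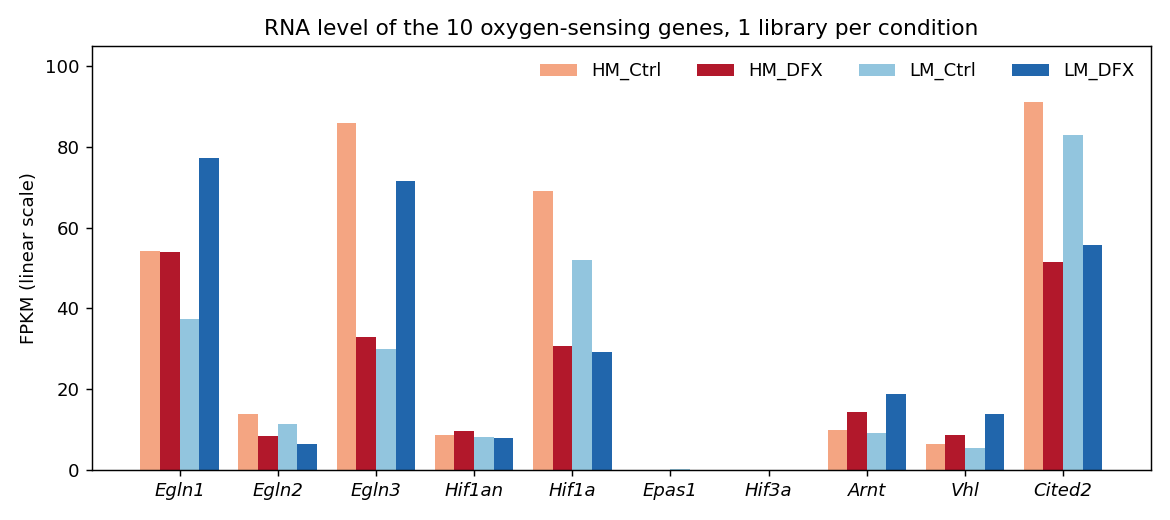
Bars give the FPKM (linear axis) of each of the 10 genes in the 4 libraries, 1 library per condition and so without error bars. Egln3 is high in HM_Ctrl (85.9) and LM_DFX (71.7) and low in HM_DFX (32.8) and LM_Ctrl (29.8), while Epas1 and Hif3a are at or near 0.

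In the untreated clones the order of levels, from high to low, was Cited2, Egln3, Hif1a, Egln1, Egln2, Arnt, Hif1an and Vhl in HM_Ctrl. LM_Ctrl had the same order except that Egln3 stood below Hif1a and Egln1. Cited2 was at the 96.0th percentile of expressed genes in HM_Ctrl and Vhl at the 43.1st. Under DFX, Egln1 came first in both clones and Egln2 last of the 8 expressed members. Some neighbours in these orders had counting intervals that overlapped. In HM_DFX, Egln1 (51.9 to 55.9) overlapped Cited2 (48.8 to 54.2), Egln3 (31.03 to 34.7) overlapped Hif1a (29.4 to 31.8), and Vhl (7.65 to 9.42) overlapped both Hif1an (8.998 to 10.3) and Egln2 (7.53 to 9.35). In HM_Ctrl, Cited2 (87.8 to 94.3) overlapped Egln3 (83.2 to 88.7), and in LM_Ctrl, Arnt (8.54 to 9.60) overlapped Hif1an (7.50 to 8.60).

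The comparison of the untreated clones asks how the machinery differs between these clones before iron is removed. Egln3 was the only member past 2-fold, higher in HM_Ctrl than in LM_Ctrl by 2.82-fold on the FPKM + 1 scale, from 3829 and 1248 fragments (log2 fragment ratio 1.53, interval 1.43 to 1.62). This 1 of 8 expressed members compares with 6.8% of all expressed genes called in either direction, 3.65% higher and 3.15% lower. At a 1.5-fold threshold Egln3 was still the only one, against 19.2% of expressed genes. The other 7 members had positive values from 0.09 for Hif1an to 0.53 for Egln1, where the median over all expressed genes was 0.01 and 51.4% were above 0. The median over the 8 members was 0.24. For Arnt and Hif1an, the fragment ratio between the clones had an interval that included no difference, up to 0.23 for Arnt and from −0.03 to 0.24 for Hif1an on the log2 scale. Hif1a had a log2 change of 0.41 and Cited2 of 0.13.

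Under DFX in 4T1-HM, Hif1a and Egln3 fell and no member rose. The 2 of 8 members called lower compare with 12.4% of all expressed genes, where 6.93% were called higher and 19.3% in either direction. At 1.5-fold, 4 of 8 members were called, all lower, against 42.1% of expressed genes. The median over all expressed genes in this comparison was −0.10. Scaling of the libraries by their median ratio, which centres it at 0.00, changed the share of called genes that were higher from 35.9% to 46.7%. Egln3 had a log2 change of −1.36, with 3829 fragments in HM_Ctrl and 1255 in HM_DFX, and its fragment ratio was −1.39 (interval −1.48 to −1.30). Hif1a had a log2 change of −1.15, from 6820 to 2588 fragments (fragment ratio −1.18, interval −1.24 to −1.11). Under median-ratio scaling the change of Hif1a was −1.02, just past the threshold. Among all expressed genes, 9.09% changed at least as much as Egln3 in either direction and 14.0% at least as much as Hif1a. The remaining members stayed within 2-fold. Cited2 was at −0.81 and Egln2 at −0.65, while Arnt was at 0.50, Vhl at 0.38 and Hif1an at 0.14. Egln1 was at −0.01, with a fragment ratio from −0.08 to 0.06, and at 0.12 under median-ratio scaling.

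Under DFX in 4T1-LM, Egln3, Vhl and Egln1 rose and no member fell. The 3 of 8 members called higher compare with 7.09% of all expressed genes, where 8.72% were called lower and 15.8% in either direction. At 1.5-fold, 6 of 8 members were called, 4 higher and 2 lower, against 36.4% of expressed genes. Egln3 had a log2 change of 1.24, from 1248 fragments in LM_Ctrl to 4174 in LM_DFX, with a fragment ratio of 1.27 (interval 1.17 to 1.36). Vhl had 1.22, from 251 to 900 fragments, the smallest numbers among the called members, and its fragment ratio of 1.37 had the widest interval of the 3, from 1.16 to 1.57. For Egln1 the change was 1.03, just past the threshold, from 2109 to 6066 fragments. Arnt lay just below it at 0.97, and passed it at 1.03 with a pseudocount of 0.1 in place of 1, at 1.03 under median-ratio scaling and at 1.04 as a fragment ratio. Values below 0 were those of Hif1a (−0.81), Egln2 (−0.72), Cited2 (−0.56) and Hif1an (−0.02).

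**Figure D2:**
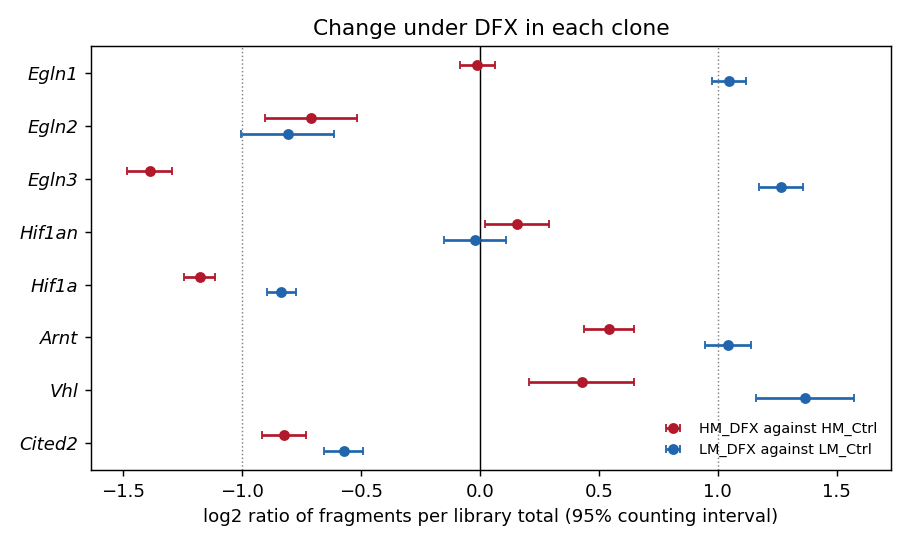
Points give the log2 ratio of fragments per library total for each of the 8 expressed members under DFX, for 4T1-HM in red and 4T1-LM in blue, with 95% counting intervals as bars and 2-fold marked by dotted lines. Egln3 is at −1.39 in HM and 1.27 in LM, and Egln2 is negative in both clones with overlapping intervals.

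The clones were then compared in their response, taken as the log2 change under DFX in HM minus that in LM. Egln3 differed by −2.60, and 0.284% of expressed genes differed at least as much in either direction. Egln1 differed by −1.04 and was the other member past 2-fold, where 8.9% of expressed genes were past it in either direction, 5.38% in this one and 3.52% in the other. At 1.5-fold, 3 of 8 members differed, against 26.2% of expressed genes. Under median-ratio scaling Egln3 alone stayed past 2-fold. The value of Vhl was −0.84 and that of Arnt −0.47, and for Egln1, Egln3, Vhl, Arnt, Hif1a and Cited2 the fragment-ratio intervals of the clones did not overlap. For Egln2 (0.07) and Hif1an (0.16) they did. Whether any of these differences exceeds the spread between cultures was not tested, since 1 library per condition allows no interaction test. A fall of at least 2-fold in HM together with a rise of at least 2-fold in LM, as Egln3 had, occurred in 14 of the 12669 expressed genes, or 0.111%. The reverse occurred in 0.0553%, a fall in both clones in 5.32% and a rise in both in 3.46%, and no other member belonged to any of these classes. Of the 14 genes, 3 reached an FPKM of at least 10 in their highest library.

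**Figure D3:**
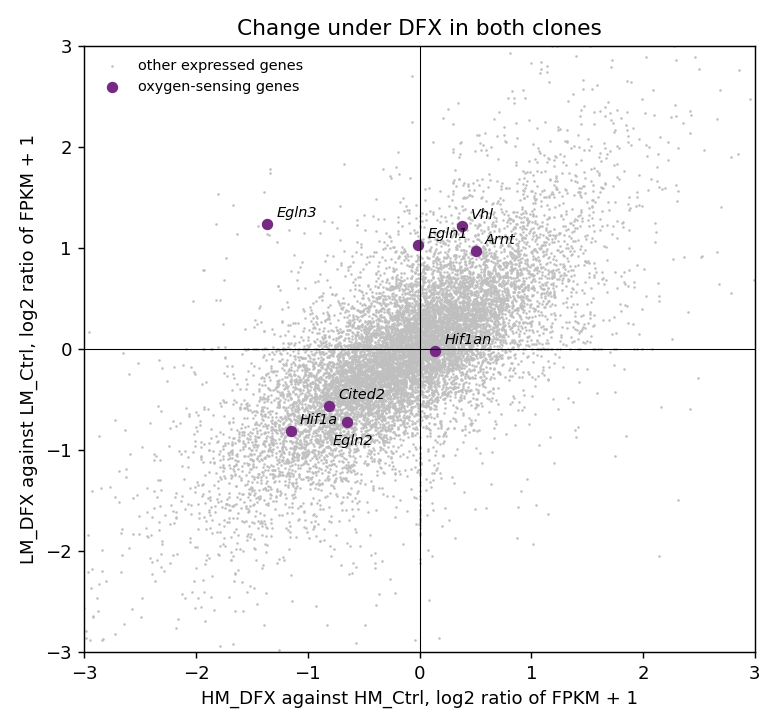
Each point is an expressed gene, with its log2 ratio of FPKM + 1 under DFX in 4T1-HM on the x axis and in 4T1-LM on the y axis, and 91 genes lie beyond the axis limits of 3. Hif1a, Cited2 and Egln2 are below 0 in both clones, Arnt and Vhl are above 0 in both, and Egln3 is at −1.36 and 1.24.

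With DFX in both clones, the HM_DFX and LM_DFX libraries were closer for the alpha subunit than for the hydroxylases. Hif1a was at 30.6 and 29.1, a log2 change of 0.07 in HM_DFX against LM_DFX with a fragment-ratio interval that just included no difference and reached 0.14. Egln3 was lower in HM_DFX by a log2 change of −1.10, and was 1 of 8 members called, against 5.05% of expressed genes called lower, 3.31% called higher and 8.36% in either direction. At 1.5-fold 2 members were called, Egln3 and Vhl, against 24.5%. The other values ran from −0.63 for Vhl and −0.51 for Egln1 to 0.35 for Egln2.

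Summed over the 3 prolyl hydroxylase genes, the FPKM in 4T1-HM was 154 untreated and 95.1 under DFX, and in 4T1-LM it was 78.3 untreated and 155 under DFX. The sum was thus about level between HM_Ctrl and LM_DFX and lower in the other libraries. Egln3 made up 55.8% of it untreated and 34.5% under DFX in HM, and 38.1% and 46.2% in LM. The share of Egln2 was 8.93% untreated and 8.84% under DFX in HM, and 14.3% and 4.12% in LM. Egln1 went from 35.2% to 56.6% of the sum in HM and from 47.6% to 49.7% in LM, so under DFX it was the largest share in both clones.

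The balance of alpha to beta subunit RNA was lower under DFX in both clones. The FPKM of Hif1a was 7.05 times that of Arnt untreated and 2.14 times under DFX in HM, and 5.73 and 1.56 times in LM. Relative to Vhl, Hif1a was 10.9 times as high untreated and 3.59 times under DFX in HM, and 9.74 and 2.12 times in LM. These ratios are taken within a library, so the scaling between libraries does not enter them. The prolyl hydroxylase sum was 2.23 times the FPKM of Hif1a untreated and 3.11 times under DFX in HM, and 1.51 and 5.33 times in LM.

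**Figure D4:**
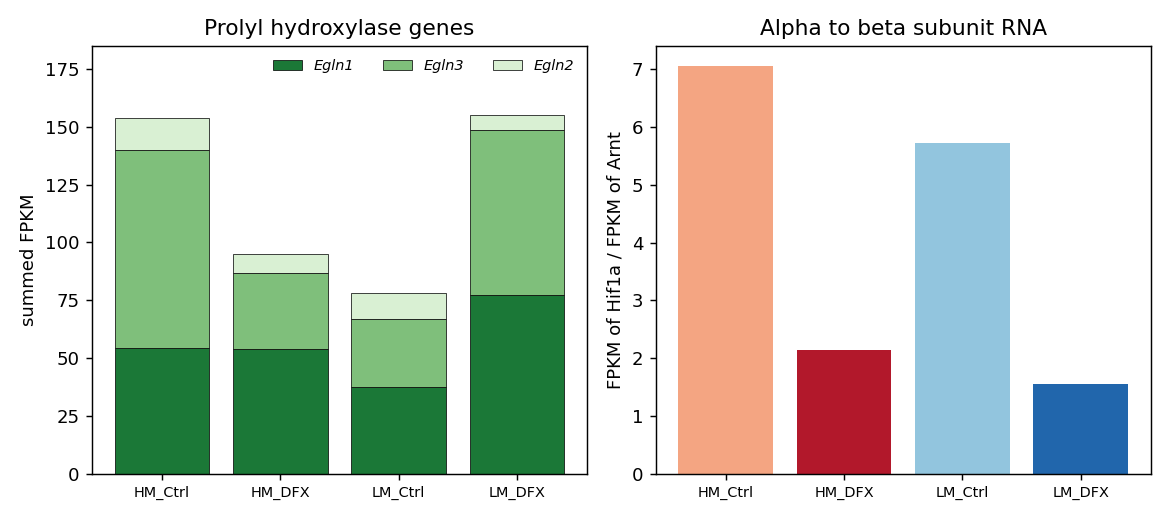
The left panel stacks the FPKM of Egln1, Egln3 and Egln2 in each library, with sums of 154, 95.1, 78.3 and 155, and the right panel gives the ratio of the FPKM of Hif1a to that of Arnt. The ratio is 7.05 and 5.73 in the untreated libraries and 2.14 and 1.56 under DFX.

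A transcript on the opposite strand lies over Hif1a and moved the other way. This gene, Gm15283, was at an FPKM of 2.43 in HM and 1.97 in LM untreated, and at 5.42 and 5.48 under DFX, and 4.68% of the 31-base words of Hif1a occur in it. The libraries were directional, but the strand setting of the counting is not given in the sources used here. Without strand, reads from the stretch where the exons of the pair overlap could not be told apart. The overlapping neighbours of the other members were at an FPKM of at most 0.679, and no other member shared over 1% of its 31-base words with another gene.

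Promoters are shown for the 4 members past 2-fold under DFX, because HIF binds the core motif ACGTG or GCGTG and both Egln1 and Egln3 are known HIF targets. Sequences are those of RefSeq on GRCm38.p6, and 9 of the 10 members matched a window of 300 bases, from 250 before to 50 after the start of transcription. Printed are the bases before the start that lie in no exon of the gene, 5′ to 3′ on the strand of the gene, with capitals on each motif on either strand.
Egln1, chr8:124949325-124949504, minus strand: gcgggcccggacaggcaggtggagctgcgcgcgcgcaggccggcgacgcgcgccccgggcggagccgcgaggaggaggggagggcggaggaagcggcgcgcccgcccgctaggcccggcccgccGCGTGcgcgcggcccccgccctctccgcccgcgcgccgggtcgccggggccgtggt
Egln3, chr12:54203875-54204124, minus strand: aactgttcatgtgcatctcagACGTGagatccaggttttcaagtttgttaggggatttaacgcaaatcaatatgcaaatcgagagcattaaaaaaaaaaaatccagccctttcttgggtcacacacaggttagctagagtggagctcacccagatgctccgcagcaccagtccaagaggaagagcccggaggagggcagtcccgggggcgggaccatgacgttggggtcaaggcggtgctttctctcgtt
Vhl, chr6:113623744-113623958, plus strand: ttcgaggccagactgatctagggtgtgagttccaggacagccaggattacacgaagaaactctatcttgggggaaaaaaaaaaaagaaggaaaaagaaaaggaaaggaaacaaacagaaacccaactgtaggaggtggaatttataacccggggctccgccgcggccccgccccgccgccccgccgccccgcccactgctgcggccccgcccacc
Hif1a, chr12:73907617-73907866, plus strand: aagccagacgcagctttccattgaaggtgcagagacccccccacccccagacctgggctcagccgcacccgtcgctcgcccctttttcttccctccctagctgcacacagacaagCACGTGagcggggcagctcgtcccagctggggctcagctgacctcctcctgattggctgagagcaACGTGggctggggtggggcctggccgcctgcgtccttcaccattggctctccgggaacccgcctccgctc

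The Egln1 window held a GCGTG 126 bases before the start and an ACGTG 68 bases before it, the latter within an exon and so not printed. The Egln3 window held 1 ACGTG, 229 bases before the start, and the Vhl window held neither motif. In the Hif1a window an ACGTG lay 70 bases before the start, and at 135 and 134 bases the motif was read on both strands of the same CACGTG. The Hif1a window begins at 73907617, inside the gene as given above, which begins at 73901375. The RefSeq start used for Hif1a is thus a later one than the start of that span. Over all 32851 windows of this length, 43.8% held at least 1 of the motifs on either strand, and 19.6% held ACGTG. Of the 10 windows of the 9 members, 8 held a motif, among them those of Egln2 and Cited2, whose values under DFX were negative in both clones. A match is a string of letters and says nothing of binding.

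Genes that work with the members were read from a list of 36 partner genes, of which 26 were expressed. The list holds other parts of the VHL ligase and genes that act with it, and proteins that control hydroxylase or HIF alpha turnover. It also holds coactivators and competitors, and other proteins of the bHLH-PAS family to which HIF alpha and ARNT belong. In HM_DFX against HM_Ctrl, 1 partner gene was called higher and 0 were called lower, against 6.93% and 12.4% of all expressed genes, with a median of 0.30 against −0.10. The gene was Arntl, a clock factor of the same family, at 1.18, with an FPKM of 5.4 at its highest. In LM_DFX against LM_Ctrl 1 was called higher, the nuclear receptor coactivator Ncoa1 at 1.09, and 0 were called lower, against 7.09% and 8.72%, with a median of 0.22 against −0.04. Between the untreated clones 0 of 26 were called, against 6.8% of expressed genes, and the response of the clones differed by 2-fold for 0 of the 26, against 8.9%. These small counts depend on the processing. With a pseudocount of 0.1, 3 partner genes were called higher in HM, 2 were called higher in LM, 1 was called lower between the untreated clones and 1 differed in response, and median-ratio scaling gave 3 higher in HM and 2 higher in LM.

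Of the 6 genes listed under the VHL ligase, 0 were called in either clone, against 19.3% of expressed genes in HM and 15.8% in LM. They are the ligase parts Elob, Eloc, Cul2 and Rbx1, together with Ube2d1 and Nedd8. The 6 ran from −0.58, the value of Ube2d1, to 0.32 in HM and from −0.25 to −0.01 in LM. Of Elob, 20.5% of the 31-base words occur in another gene. The 5 expressed coactivators and competitors ran from 0.32 to 0.81 in HM, where 0 were called, and from 0.24 to 1.09 in LM, where Ncoa1 was. Values above 0 were found for 43.7% of all expressed genes in HM and 46.8% in LM. Among these coactivators and competitors, Cited1 had few fragments, 7 in HM_Ctrl and 26 in HM_DFX. Its change in HM was 0.71, but its log2 fragment ratio, with no pseudocount, was 2.11 (interval 0.87 to 3.56). The 12 expressed turnover genes ran from −0.85 to 0.99 in HM and from −0.74 to 0.73 in LM, 0 were called, and 4 were below 0 in each clone. At the upper end was Siah2, a ubiquitin ligase that targets prolyl hydroxylases, at 0.99 in HM and 0.73 in LM. At the lower end were Fkbp8, which binds the EGLN1 protein, at −0.85 in HM, and Hsp90ab1, a chaperone of HIF alpha, at −0.74 in LM.

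Genes listed as HIF targets, other than the members, were read as well. HIF activity was not measured, and whether changes in these genes came through HIF was not tested. Of 38 listed, 34 were expressed. In LM_DFX against LM_Ctrl 23 of the 34 were called higher and 0 lower, against 7.09% and 8.72% of all expressed genes, and the median was 1.59 against −0.04. In HM_DFX against HM_Ctrl 7 were called higher and 2 lower, against 6.93% and 12.4%, and the median was 0.40 against −0.10. Under median-ratio scaling the counts in HM were 11 higher and 0 lower. On the FPKM + 1 scale the largest values in LM were those of Ndrg1 (3.62), Adm (3.05), Ankrd37 (3.04) and Ero1l (3.00). Their order depends on the pseudocount, since Adm had 6 fragments in LM_Ctrl and a log2 fragment ratio of 5.30 (interval 4.16 to 6.75), where that of Ndrg1 was 3.64. The largest in HM were those of Hmox1 (2.27), Kdm3a (1.72), Ndrg1 (1.70) and Pfkfb3 (1.67). The 2 called lower in HM were Gapdh (−1.03) and Ddit4 (−1.01), and neither was called under median-ratio scaling. Adm encodes the vasodilator peptide adrenomedullin, Ero1l an oxidase of the endoplasmic reticulum, Hmox1 the enzyme that breaks down heme, Kdm3a a histone demethylase and Pfkfb3 a regulator of glycolysis. Ankrd37 shares 21.4% of its 31-base words with other genes and Gapdh 28.1%, so their values are uncertain. In HM_Ctrl against LM_Ctrl 12 were called higher and 1 lower, against 3.65% and 3.15% of all expressed genes, and the median was 0.76 against 0.01. Among those called higher, Car9, a carbonic anhydrase, had the largest value at 2.29. In HM_DFX against LM_DFX 0 were called higher and 4 lower, against 3.31% and 5.05%, with a median of −0.31 against −0.05. These comparisons share libraries, so their counts are not independent. The value under DFX was larger in LM than in HM for 32 of the 34, as it was for 7163 of the 12669 expressed genes, and the difference passed 2-fold in this direction for 18 of the 34, against 5.38% of expressed genes. By sign alone, whatever the size of the change, 6 of the 34 targets were below 0 in HM and above 0 in LM, against 13.2% of all expressed genes. This is a weaker criterion than the opposite 2-fold changes of Egln3. Of the targets, Gapdh also met that stricter criterion, at −1.03 in HM and 1.15 in LM, with values uncertain for its shared sequence. Without the genes that share over 20% of their 31-base words with another gene, 17 of 27 targets were called higher in LM and 6 higher in HM.

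**Figure D5:**
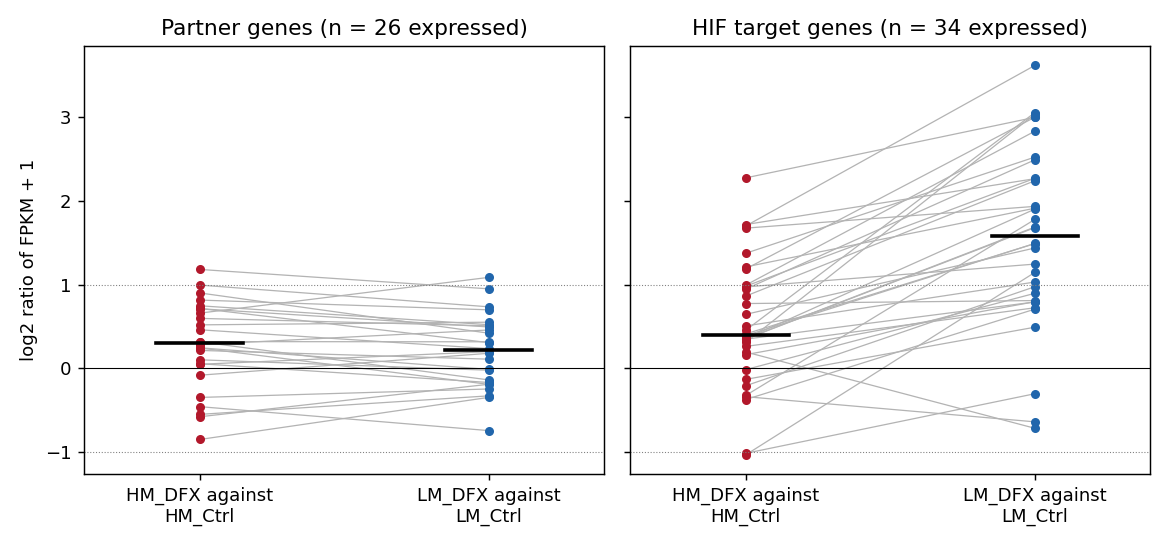
Each line joins the log2 ratio of FPKM + 1 of 1 gene under DFX in 4T1-HM (red) and in 4T1-LM (blue), for 26 expressed partner genes on the left and 34 expressed HIF targets on the right, with black bars at the medians. The medians are 0.30 and 0.22 for the partner genes and 0.40 and 1.59 for the targets.

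Genes with a pattern like that of a member were sought over the 4 libraries for the members past 2-fold under DFX, by the distance between log2(FPKM + 1) values centred on their own mean, among 8307 protein-coding genes that reached an FPKM of 5. With only 4 libraries many genes lie close together, so the names are a description. Nearest to Hif1a were Pik3r2 (distance 0.05), Zfp386 (0.07) and Pura (0.07). For Egln1 they were Natd1 (0.10), Fam210b (0.11) and Tmem135 (0.11), and for Vhl they included Tbl2 (0.09) and Tmem71 (0.10). Egln3 had no neighbour as close, with Gapdh (0.37), Tecpr1 (0.41) and Slc27a1 (0.41) as the nearest. Gapdh, a glycolytic enzyme gene, shares 28.1% of its 31-base words with other genes, mostly a pseudogene, and its FPKM of 7.06 to 22.9 is therefore uncertain.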

How the data were processed

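Total RNA of 4 samples, 1 library per condition, was sequenced by the authors as directional poly(A) libraries in paired-end reads, and samples were grouped by their titles. The study's methods describe its experiments as done in triplicate, but the labels give 1 sample per condition and do not say whether it pools cultures. Per the submitters' processing notes and the methods of the study, quality was read with FastQC, trimming used Trimmomatic and alignment to mm10 used HISAT2, and the notes also name the read counter featureCounts. Tool versions and the strand setting are not given in the sources used here. The authors deposited FPKM per gene, 1 column per library, with genes at 0 kept. They called genes with edgeR, which was not repeated because 1 library gives no spread.

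Exon lengths were those of GENCODE release M21, whose coordinates match for 45128 of 49585 genes, or were solved from a gene's own values. With these, 95.9% of expressed genes gave whole fragments (within 0.02) in all libraries. For the 1963 genes with a solved length this held by construction, since the length was chosen to give whole fragments. For Cited2 the solved length was 1968 bases. Ratios of fragments have exact (Clopper-Pearson) intervals, and levels have exact Poisson intervals, both at 95%. Changes were log2 ratios of FPKM + 1 with a filter of FPKM of at least 1 and a 2-fold threshold. 7 alternatives were tried: 0.1 as pseudocount, all genes above 0, a filter on the mean FPKM, libraries scaled by median ratio or by the 75th percentile, 1.5-fold as threshold, and fragment ratios. The lists without genes of shared sequence, and the count of opposite responses, were added after seeing the data. Named genes were all 10 members, up to 4 listed genes past 2-fold per list and comparison, and the 3 genes nearest to a member. Elob, Ube2d1, Cited1, Siah2, Fkbp8, Hsp90ab1 and the genes in the closing observations were chosen after their values were seen. Members and lists were chosen with earlier results of these data known. Scripts (Python 3.11.15, scipy 1.17.1, pandas 2.3.3) were tested on simulated data. Protein sequences were not used here. Some genes that these rules would name are not reported here.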

Additional observations from a re-analysis of the deposited data

Results flagged for a closer look

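Egln3 moved in opposite directions in the clones under DFX, with a log2 change of −1.36 in 4T1-HM and of 1.24 in 4T1-LM. It was picked out because both counting intervals lay on opposite sides of no change. Each value rests on 1 library per condition, so the difference between the clones was not tested.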

How the results depend on the processing

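The 5 counts of members past 2-fold were recomputed under 7 alternatives, and 31 of the 35 recomputed counts stayed within 1.5 times the reported one. The changes of filter could not alter these counts, since Epas1 and Hif3a were near 0 and the expressed members were at 5.32 or more. With such small counts the tolerance also passed 4 in place of 3 in LM_DFX against LM_Ctrl with a pseudocount of 0.1. It likewise passed 3 in place of 2 for the difference in response at 1.5-fold. At a 1.5-fold threshold, 4 members were called in HM_DFX against HM_Ctrl (2 at 2-fold), 6 in LM_DFX against LM_Ctrl (3 at 2-fold) and 2 in HM_DFX against LM_DFX (1 at 2-fold), which follows from the lower threshold. Median-ratio scaling left 1 member, Egln3, with a difference in response past 2-fold in place of 2, because Egln1 lay close to the threshold. A pseudocount of 0.1 or a fragment ratio cannot turn the sign of a change, so only the scalings of the libraries could. Of the changes of single members, 32 of 32 kept their sign under 75th percentile scaling and 30 of 32 under median-ratio scaling. The exceptions, both under median-ratio scaling, were Egln1 in HM_DFX against HM_Ctrl (−0.01 to 0.12) and Hif1an in LM_DFX against LM_Ctrl (−0.02 to 0.05). Over all expressed genes, the number called in HM_DFX against HM_Ctrl was 2446, against 5328 at 1.5-fold. With a pseudocount of 0.1 the numbers called were 3631 in HM_DFX against HM_Ctrl (2446 as reported), 3070 in LM_DFX against LM_Ctrl (2003), 1557 in HM_Ctrl against LM_Ctrl (861) and 1993 in HM_DFX against LM_DFX (1059). No paired analysis was possible because each condition has 1 library and the results come from no test. Depth did not limit the 8 expressed members, the lowest of which had 251 fragments, while Epas1 and Hif3a lay at or near the level that 3 fragments give.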

Other observations

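The 14 genes that fell at least 2-fold in 4T1-HM and rose at least 2-fold in 4T1-LM under DFX were mostly scarce, and 5 of them were protein-coding. An FPKM of at least 10 in the highest library was reached by 3, which were Egln3, Gapdh and Slfn2, a Schlafen family gene. The FPKM of Slfn2 went from 8.83 to 2.89 in HM and from 2.33 to 10.5 in LM, with log2 changes of −1.34 and 1.78. That of Gapdh, which is uncertain for its shared sequence, went from 22.9 to 10.7 in HM and from 7.06 to 16.8 in LM. The remaining 11 include small nucleolar RNA genes, such as Snord93, at 4.21 and 0.981 in HM and 0 and 1.93 in LM. Several of the 11 were at 0 in both HM_DFX and LM_Ctrl, such as Snord42b, at 1.73 in HM_Ctrl and 1.32 in LM_DFX. Fragment numbers are not given for these genes, so their changes may be no more than counting error. The reverse, a rise in HM with a fall in LM, was found for 7 genes.

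Of the 10 promoter windows of the members, the one with most HIF core motifs was the first window of Egln2, with 6 matches over both strands, where 3.86% of all windows held 4 or more. Of these, the matches 4 and 3 bases before the start are the same CACGTG read on both strands. Egln2 was not past 2-fold under DFX in either clone, at −0.65 and −0.72.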
